A study of Mus musculus with 7 samples.

Results

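Hox genes encode homeodomain transcription factors that give cells their place along the head to tail axis of the embryo. The rows described here were chosen by name: every row of the value table with exactly 1 annotated gene symbol made of Hox, a cluster letter and a paralogue number. They are 32 genes, each with 1 row, of 23332 rows in all, and of 39 Hox genes in the RefSeq table of the mouse. Hoxa3 and Hoxd4 shared a row with another gene, and they and the remaining Hox genes were not analysed here. Of the 32 genes, 8 lie in cluster A, 10 in cluster B, 8 in cluster C and 6 in cluster D.

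The arteries came from 3 male mice carrying PPAR gamma P467L, a dominant-negative human PPARγ, and from 4 non-transgenic littermates; age and strain were not given in the sources used here. The smooth muscle myosin heavy chain promoter drove the transgene, so the receptor was targeted to smooth muscle while the RNA came from the whole mesenteric artery with every cell type it held. Each mouse gave 1 exon array, and the values are RMA summaries on the log2 scale. In a whole vessel, fewer cells of a type and less RNA per cell cannot be told apart.

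A Hox gene's paralogue number gives its place in the cluster: low numbers are switched on early and towards the head, high numbers later and towards the tail. Many adult cells, among them fibroblasts and vascular smooth muscle, keep part of the Hox pattern of the site where they arose, so a trunk vessel and a limb vessel differ in their Hox genes. Hox proteins bind DNA together with cofactors of the PBX and MEIS families, and retinoic acid, CDX factors and the Polycomb and Trithorax complexes set which part of a cluster is open.

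The tissue label was set against its defining markers. The smooth muscle genes Acta2 and Myh11 stood at 12.03 ± 0.056 and 11.49 ± 0.063 (SD, n = 4) in non-transgenic artery, and all 7 measured smooth muscle markers lay above the reference level described next. The Pparg row was at 6.78 ± 0.30 (SD, n = 4) and 6.66 ± 0.16 (SD, n = 3) in P467L artery. Nothing in the sources used here says whether that row reads the human transgene, so it was no check of genotype. Array medians lay between 6.29 and 6.34.

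The promoter sequences of the brightest Hox gene of each cluster are shown for those in RefSeq's promoter table. That table held none for Hoxc6, the brightest of cluster C. Each is the 250 bases before the gene's start on build GRCm38.p6, read 5′ to 3′ on the gene's strand. Hoxa5 lies at chr6:52204588-52204837 on the minus strand, Hoxb4 at chr11:96318017-96318266 and Hoxd10 at chr2:74691641-74691890, both on the plus strand. Capitals mark matches to AGGTCA, the hexamer bound by PPARγ and by retinoic acid receptors, on either strand.
Hoxa5: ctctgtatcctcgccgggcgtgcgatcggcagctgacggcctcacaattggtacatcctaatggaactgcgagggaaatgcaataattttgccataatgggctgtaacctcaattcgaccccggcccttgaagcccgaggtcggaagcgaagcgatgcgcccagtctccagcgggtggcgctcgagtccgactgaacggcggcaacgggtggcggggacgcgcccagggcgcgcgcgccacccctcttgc
Hoxb4: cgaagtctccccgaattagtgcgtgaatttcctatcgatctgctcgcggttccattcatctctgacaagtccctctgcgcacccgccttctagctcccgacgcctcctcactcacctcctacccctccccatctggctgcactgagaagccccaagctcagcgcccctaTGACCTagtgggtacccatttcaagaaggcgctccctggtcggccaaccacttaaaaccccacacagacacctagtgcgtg
Hoxd10: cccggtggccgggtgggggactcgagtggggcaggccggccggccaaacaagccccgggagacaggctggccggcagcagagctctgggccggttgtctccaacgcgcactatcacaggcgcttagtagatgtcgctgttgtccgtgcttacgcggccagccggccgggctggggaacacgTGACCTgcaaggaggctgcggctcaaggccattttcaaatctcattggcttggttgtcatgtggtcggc
The stretches of Hoxb4 and Hoxd10 each held 1 match, on the minus strand, and that of Hoxa5 held 0. Of all 32851 promoter windows of this length 14.02% held AGGTCA on either strand, and of 19 windows of 17 measured Hox genes 4 did. TGACAG, the site of MEIS factors, was in 15.9% of all windows and in 1 of the Hox windows, that of Hoxa2. The letters TGATNNAT, a joint site of HOX and PBX proteins, were in 7.68% of all windows and in 4 Hox windows, those of Hoxa2, Hoxb1, Hoxb8 and Hoxd11. A match is a run of letters only, and no binding was measured.

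The first question was which Hox genes the adult mesenteric artery shows at all. Rows of different genes use different probes, so a brighter row need not mean more transcript, and the levels are a description without a test. As no detection calls were used, the 719 rows of olfactory receptor genes, seldom active outside the nose, served as a yardstick for dim rows. Their median in non-transgenic artery was 4.56 and their 95th percentile 6.60, the reference level used here. Of the 32 Hox rows 13 lay above it, as did 40.6% of all rows, the share that the Hox rows also had. Their median was 6.47 against 6.31 over all rows, 4 stood above the upper quartile of all rows at 7.20, and Hoxc12 alone lay below the lower quartile at 5.28.

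The rows above the reference were mostly those of low and middle paralogue number. Of 9 rows with paralogue numbers 1 to 4, 5 were above it (median 6.79 in non-transgenic artery), 4 of them in cluster B. Of 10 rows with numbers 5 to 8, 6 were above it (median 6.94). Of 13 rows with numbers 9 to 13, 2 were, Hoxc9 and Hoxd10 (median 6.12). The lower references tried were the 90th percentile of the olfactory rows (6.285) and the 95th of vomeronasal receptor rows (6.315). Of all rows 50.8% and 49.8% lay above them, and 18 of the 32 Hox rows lay above either. In that count numbers 9 to 13 had 5 rows, with Hoxb9, Hoxc13 and Hoxd9 added, numbers 1 to 4 had 6 and numbers 5 to 8 had 7, while cluster C had 4 rows and cluster D 2. Across the 32 rows Spearman's rho between level and paralogue number was -0.37, a description over genes that share arrays but not probes. The clusters differed in this. Medians of numbers 1 to 4 against 9 to 13 were 6.77 against 5.82 in A and 7.05 against 5.97 in B. The order was the reverse in C (5.645, 1 row, against 5.98) and in D (5.655 against 6.33).

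**Figure D1:**
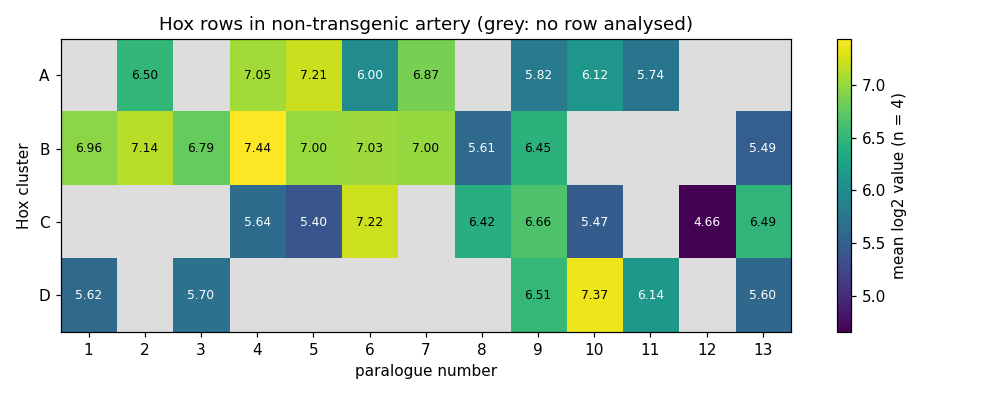
Mean log2 value of each Hox row over 4 non-transgenic arrays, with clusters in rows and paralogue numbers in columns; grey squares have no gene or no row analysed. The run of cluster B from paralogue 1 to 7 lies between 6.79 and 7.44, and Hoxd10 at 7.37 is the 1 row of cluster D above the reference level of 6.60.

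Cluster B was the brightest of the clusters, with a median of 6.98 and 7 of 10 rows above the reference. Its rows from Hoxb1 to Hoxb7 formed an unbroken run, with means of 6.96 for Hoxb1, which patterns the hindbrain, 7.14 for Hoxb2, 6.79 for Hoxb3, 7.44 for Hoxb4, 7.005 for Hoxb5, 7.025 for Hoxb6 and 7.003 for Hoxb7. Beyond it lay Hoxb8 at 5.61, Hoxb9 at 6.45 and Hoxb13, a gene of prostate and hindgut, at 5.49. Hoxb4, known for its role in blood stem cells, was brighter than 79.7% of all rows. On the 4 non-transgenic arrays it read 7.46, 7.46, 7.46 and 7.37, and on the P467L arrays 7.57, 7.54 and 6.91. The low value came from P467L replicate 3, and the other 6 arrays lay within 0.20 of each other. The groups overlapped, with a difference of -0.098 (95% interval from -0.51 to 0.31, limma adjusted p = 1), and of 0.12 without P467L replicate 3.

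In cluster A the median was 6.31 and 3 of 8 rows were above the reference. Hoxa5, which patterns the lung and the neck and trunk skeleton, was the brightest at 7.21 ± 0.079 (SD, n = 4). It read 7.28, 7.10, 7.22 and 7.25 in non-transgenic and 7.05, 7.38 and 7.07 in P467L artery. The P467L values therefore lay on both sides of all 4 non-transgenic ones. Hoxa4 was at 7.05 and Hoxa7 at 6.87. The remaining rows were Hoxa2, a gene of the hindbrain and branchial arches, at 6.495, Hoxa6 at 5.998, Hoxa9 at 5.82, Hoxa10 at 6.12 and Hoxa11 at 5.74. Hoxa10 and Hoxa11 are known for limb and uterus.

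In cluster C the median was 6.03, with Hoxc6 at 7.22 ± 0.12 (SD, n = 4) and Hoxc9 at 6.66 above the reference. Hoxc8, a thoracic gene, was at 6.415, Hoxc4 at 5.645, Hoxc5 at 5.40 and Hoxc10, a hindlimb gene, at 5.47. Hoxc13, known for hair, was at 6.49. Hoxc12 was the dimmest of all Hox rows at 4.66 ± 0.40 (SD, n = 4), near the median of the olfactory receptor rows.

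Cluster D had a median of 5.92 and 1 row above the reference. That row was Hoxd10, which patterns the hindlimb and lumbar spinal cord, at 7.365 ± 0.28 (SD, n = 4). It read 7.32, 7.33, 7.07 and 7.74 in non-transgenic artery and 7.33, 7.20 and 7.5 in P467L artery, so that every P467L value lay inside the range of the non-transgenic arrays. Hoxd9 was at 6.51, Hoxd11 at 6.14, Hoxd3 at 5.695, Hoxd1 at 5.615 and Hoxd13, the digit gene, at 5.60. The order of the clusters by median, B, A, C and D, was the same on the P467L arrays, with medians of 6.97, 6.25, 6.05 and 5.91. Both groups were read with the same probes, so a shared order says little about the genotype.

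The second question was whether P467L artery kept this pattern. In limma, fitted over all rows with Benjamini-Hochberg adjustment, 0 of 32 Hox genes passed an adjusted p of 0.05, as did 0 of all rows (0%). The adjusted p of all 32 was 1. At an unadjusted p of 0.05 the fit listed 1 Hox gene, or 3.125% of them, against 3.1% of all rows in either direction. The gene was Hoxc6 on the lower side, where 1.56% of all rows were listed, and 0 Hox genes were on the higher side, where 1.55% were. These shares are near the background. In 0 Hox genes were the groups free of overlap, against 2.57% of all rows. An exact two-sided rank-sum test over these mice cannot give a p below 0.0571. That floor does not apply to limma.

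**Figure D2:**
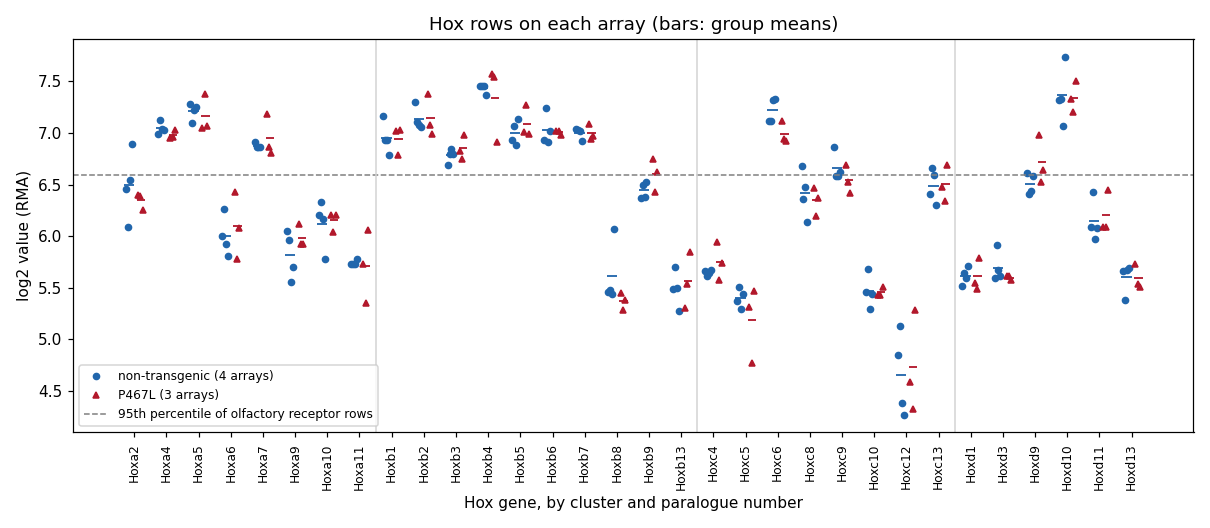
Log2 value of each Hox row on every array, circles for the 4 non-transgenic and triangles for the 3 P467L arrays, with bars at the group means and the dashed reference level at 6.60. In each of the 32 genes the groups overlap or touch, and Hoxb4 shows the P467L array at 6.91 apart from the other arrays.

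The sizes of the differences were those of the array as a whole. Over the 32 genes the median difference, P467L minus non-transgenic, was -0.0058 on the log2 scale, against -0.0025 over all rows. Of these genes 14 had higher and 18 lower means in P467L artery, and over all rows 11124 were higher and 11832 lower. The median size of a difference without its sign was 0.070 in Hox genes and 0.072 over all rows. In 22 of 32 genes the difference was smaller than the SD of the non-transgenic arrays. Differences ran from -0.24 (Hoxb8) to 0.21 (Hoxd9).

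The precision sets what could have been seen. All 32 of the 95% intervals lay inside a change of 1 on the log2 scale in either direction, and 26 lay inside a change of 0.5. The widest belonged to Hoxc12, from -0.68 to 0.83. The spread between non-transgenic mice was ordinary, with a median SD of 0.141 in Hox rows against 0.135 over all rows, and between P467L mice 0.153 against 0.163. The size of shift that could be seen differed by gene with the width of its interval. Values within 1 interval cannot be told apart with this number of arrays.

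**Figure D3:**
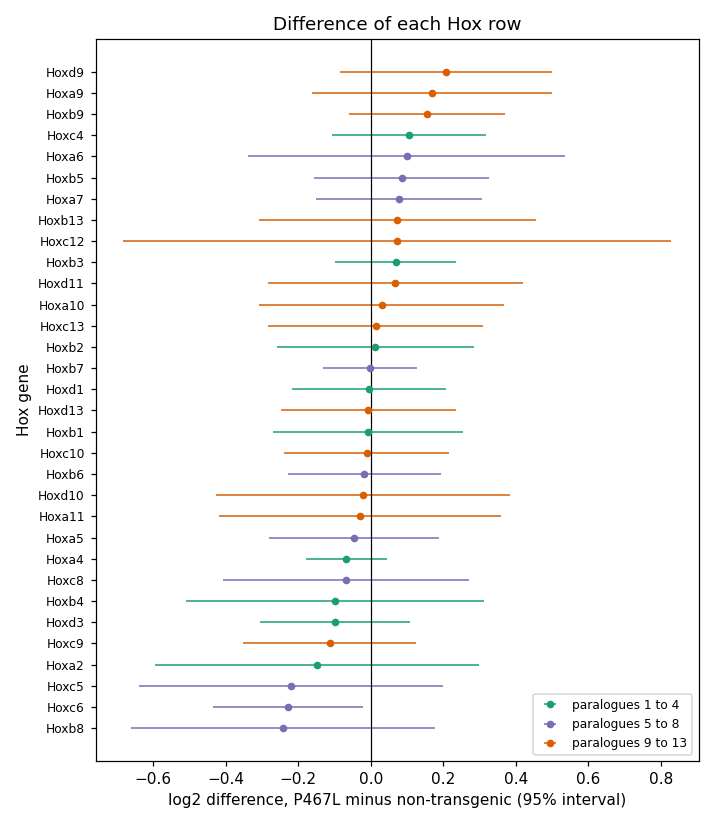
Difference of each Hox gene in log2 units, P467L minus non-transgenic, with its 95% interval from limma, coloured by paralogue number and ordered by size. The interval of Hoxc6, from -0.44 to -0.023, is the 1 of 32 that leaves out 0.

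Hoxc6, a gene of the thoracic trunk and mammary gland, had the lowest p of the family. It read 7.12, 7.12, 7.32 and 7.33 in non-transgenic artery and 7.12, 6.94 and 6.92 in P467L artery. P467L replicate 1 equalled the lowest non-transgenic arrays, and the other P467L arrays lay below all of them. P467L arrays averaged 1.17-fold less, or -0.23 ± 0.084 (standard error) on the log2 scale (limma, unadjusted p = 0.0349, adjusted p = 1). Over 17 alternatives its direction held, and its unadjusted p was under 0.05 in 9. It rose above 0.05 without non-transgenic replicate 3 (0.0812) or 4 (0.0795) and without P467L replicate 2 (0.102) or 3 (0.107).

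Next by p on the lower side came Hoxa4, Hoxb8, Hoxc5 and Hoxd3, none of which passed. Hoxa4 read 6.99, 7.13, 7.04 and 7.03 against 6.95, 6.96 and 7.03 in P467L artery, a difference of -0.068 (interval from -0.18 to 0.044), and -0.040 without non-transgenic replicate 2. P467L replicate 3 lay inside the non-transgenic range and the other P467L arrays below it. Hoxb8, known in the mouse for microglia and grooming behaviour, read 5.46, 5.48, 5.44 and 6.07 against 5.45, 5.28 and 5.38. Its difference of -0.24 rests on the value of 6.07 in non-transgenic replicate 4, without which it was -0.090.

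Hoxc5 read 5.37, 5.51, 5.29 and 5.44 against 5.31, 4.77 and 5.47, where P467L replicate 2 alone lay below the non-transgenic range. Its difference was -0.22, and -0.0125 without that array. Hoxd3 read 5.59, 5.91, 5.67 and 5.61 against 5.61, 5.61 and 5.57, a difference of -0.098 in which non-transgenic replicate 2 was the high array. Without that array it was -0.027.

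On the higher side, 3 of the 5 genes of lowest p belonged to paralogue group 9, whose members pattern the lower thoracic trunk. Hoxb9 read 6.37, 6.5, 6.38 and 6.53 against 6.75, 6.43 and 6.62 in P467L artery, a difference of 0.155 (interval from -0.059 to 0.37). Hoxd9 read 6.61, 6.41, 6.44 and 6.58 against 6.98, 6.53 and 6.64, a difference of 0.21 (interval from -0.085 to 0.50). In both genes 2 of the 3 P467L arrays lay above every non-transgenic array and P467L replicate 2 lay within their range. Without P467L replicate 1, the highest array in both, the difference was 0.080 for Hoxb9 and 0.075 for Hoxd9, and without P467L replicate 2 it was 0.24 and 0.30.

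Hoxa9, a gene of blood progenitors as well as trunk, read 6.05, 5.96, 5.56 and 5.70 against 6.12, 5.92 and 5.92, a difference of 0.17. All but the highest of its P467L values lay inside the non-transgenic range. Leaving out non-transgenic replicate 3 made this 0.083, and leaving out P467L replicate 1 made it 0.1025. The fourth member of the group, Hoxc9, differed by -0.11, and the median of the group's 4 differences was 0.16. This grouping was noticed after the values were seen, and limma's main fit called 0 of its members at an adjusted p of 0.05 or an unadjusted p of 0.05. Weights per array were 3.54 for P467L replicate 1, and 0.46 and 0.33 for P467L replicates 2 and 3. P467L replicate 1 was the highest P467L array in Hoxb9, Hoxd9 and Hoxa9. With these weights 12.1% of all rows were listed. There limma's unadjusted p was 0.0126 for Hoxb9, 0.0077 for Hoxd9 and 0.040 for Hoxa9. Without P467L replicate 2 it was 0.020 for Hoxb9, beside 5.27% of all rows listed.

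The remaining 2 of the 5 were Hoxc4 and Hoxb3. Hoxc4 read 5.66, 5.61, 5.64 and 5.67 against 5.94, 5.57 and 5.74, a difference of 0.105, and 0.0100 without P467L replicate 1, the high array. Hoxb3 read 6.69, 6.80, 6.85 and 6.80 against 6.83, 6.75 and 6.98, a difference of 0.068, and 0.0050 without P467L replicate 3. The genes not given array by array differed by -0.15 (Hoxa2) to 0.099 (Hoxa6).

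By position, the median difference was -0.0083 for paralogues 1 to 4 (3 higher, 6 lower), -0.032 for 5 to 8 (3 higher, 7 lower) and 0.031 for 9 to 13 (8 higher, 5 lower). The sign of the first and of the last of these medians turned when single arrays were left out, with ranges from -0.0525 to 0.0475 and from -0.050 to 0.100. By cluster it was 0.00083 in A, 0.0050 in B, -0.040 in C and -0.0058 in D. On P467L replicate 2 the 8 rows of cluster C deviated by -0.208 on average from their 7-array means.

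The Hox rows also moved from array to array within each genotype. The mean deviation of the 32 rows from their 7-array means was 0.021, 0.048, -0.048 and -0.0099 on the non-transgenic arrays and 0.056, -0.098 and 0.031 on the P467L arrays. The group means of these deviations were 0.0026 and -0.0035, closer together than the arrays within either group. For paralogues 9 to 13 it was 0.145 on P467L replicate 3 and -0.116 on P467L replicate 2, the highest and lowest of the 7 arrays. Rows above the reference level over the whole array went the other way, at -0.132 and 0.088 on these arrays, whereas olfactory receptor rows were at 0.068 and -0.029. The part of this in the Hox values was not tested.

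**Figure D4:**
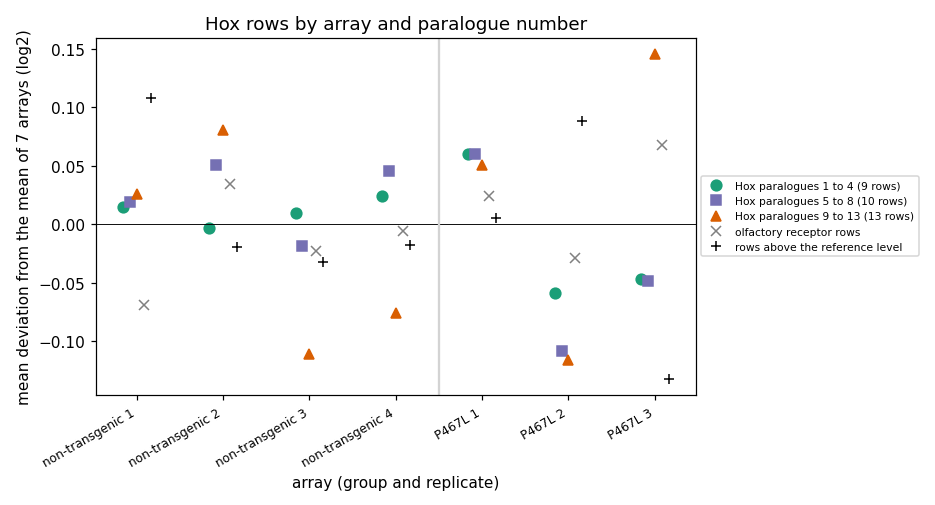
Mean log2 deviation of Hox rows from their mean over 7 arrays, by array and class of paralogue number, with olfactory receptor rows (crosses) and all rows above the reference level (plus signs). P467L replicates 2 and 3 lie at opposite ends for paralogues 9 to 13, at -0.116 and 0.145.

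The cofactors that Hox proteins need were compared next. Of 9 listed genes of the PBX, MEIS and PKNOX families 7 were measured, 2 with higher and 5 with lower means, and limma called 0 at an adjusted p of 0.05 and 0 at an unadjusted p of 0.05. Their median difference was -0.027. Meis1 was the brightest at 8.24 ± 0.037 (SD, n = 4) against 8.24 ± 0.19 (SD, n = 3), a difference of 0.00083. Meis2 differed by -0.055 and Pknox2 by 0.0025. Pbx3 read 6.34, 6.18, 6.17 and 6.17 against 6.14, 6.14 and 6.04. Its groups did not overlap, as in 2.57% of all rows, with a difference of -0.11 (limma, adjusted p = 1).

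Among 15 measured genes of CDX and retinoic acid control of Hox clusters, of 19 listed, 5 had higher and 10 lower means, with a median of -0.029. limma called 0 at an adjusted p of 0.05 and 0 at an unadjusted p of 0.05. Aldh1a1, an enzyme that makes retinoic acid, was bright at 9.655 and differed by 0.145, and Aldh1a3 by 0.044. Cyp26b1, which breaks retinoic acid down, differed by -0.12 and the binding protein gene Crabp1 by -0.11. Of 24 Polycomb and Trithorax genes 20 were measured, 8 with higher and 11 with lower means and a median of -0.0025, and again 0 passed at either threshold. Cbx7 and Phc2 differed by 0.058 and 0.041, Ash2l and Pcgf2 by -0.13 and -0.031.

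Genes that neighbour the clusters were compared as well. Of 27 listed neighbours and noncoding genes of the clusters 11 were measured, none of them a noncoding or microRNA gene, 5 with higher and 6 with lower means and a median of -0.020. The neighbours Snx10 and Ttll6 differed by 0.125 and 0.0225, and Hibadh and Cbx1 by -0.205 and -0.046. Of 43 other transcription factors of trunk and visceral mesenchyme 41 were measured, 19 higher and 22 lower, with a median of -0.0058. In both lists limma called 0 at an adjusted p of 0.05 and 0 at an unadjusted p of 0.05. Meox2, a homeobox gene of somites and of vascular cells, read 7.0, 6.52, 6.82 and 6.98 against 7.08, 7.02 and 7.19, without overlap and with a difference of 0.27 (limma, adjusted p = 1). Prrx1 differed by 0.16, Tbx2 by -0.11 and Tcf21 by -0.17.

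Marker lists of cell types were also set side by side. Means were lower in P467L artery for 7 of 7 smooth muscle markers (median -0.16) and 8 of 9 adipocyte markers (median -0.29), and higher for 8 of 8 macrophage markers (median 0.1525) and 6 of 8 fibroblast markers (median 0.11). limma called 0 of these at an adjusted p of 0.05, and at an unadjusted p of 0.05 it listed 1 smooth muscle, 0 adipocyte, 1 macrophage and 2 fibroblast markers, the first as lower (1.56% of all rows) and the others as higher (1.55% of all rows). The mean log2 level of the adipocyte markers ran from 6.85 to 7.89 on non-transgenic and from 6.85 to 7.18 on P467L arrays, with the top value on non-transgenic replicate 1. That of the smooth muscle markers ran from 10.24 to 10.38 and from 10.12 to 10.21, that of the macrophage markers from 6.65 to 6.95 and from 6.67 to 7.235, and that of the fibroblast markers from 8.41 to 8.67 and from 8.56 to 8.74. Markers of mesothelium and lymphocytes lay below the reference level in 6 of 6 and 6 of 6 measured genes. The part of these lists in the Hox values was not tested.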

How the data were processed

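Total RNA of mesenteric artery was amplified, labelled with biotin and hybridised to Affymetrix mouse exon 1.0 ST arrays, 1 mouse an array and not pooled, per the labels' protocols. Per the submitters' processing notes, the deposited log2 values come from RMA and Affymetrix Power Tools with build mm9. Software versions, options and the probe level of the summary were not stated there. In the values 2 of 32 Hox rows and 20.02% of all rows held the same number on 4 or more arrays. Other columns of per-sample values numbered 0.

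Of 23332 rows, 14996 had 1 symbol, 1019 several and 7317 none. Several symbols or none meant testing without a name. Entrez identifiers of 14941 rows were in RefSeq and updated 0 symbols. All rows were fitted with limma 3.58.1 (R 4.3.3), without filter or covariate, after the fit was tested on simulated data. Differences are P467L minus non-transgenic. The number of arrays limits the precision.

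The members and lists were chosen with earlier results of these data known. Values on every array are given for the 5 Hox genes of smallest p in each direction, the brightest of each cluster and any whose groups did not overlap. Of each other list the 2 genes of smallest p in each direction are named, and Pparg and Myh11 as targeted and promoter gene. Acta2 was named after its values were seen. Alternatives were other normalizations, filters, moderation, weights per array, a block for the replicate number, other choices of row, other reference levels and each array left out. Marker lists of endothelium (median difference 0.017), brown fat (-0.11), neurons (0.022), Schwann cells (0.0475), lymphatics (0.20), intestinal epithelium (0.036), skeletal muscle (0.0083), mesothelium (0.039) and lymphocytes (0.042) were also measured.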

Additional observations from a re-analysis of the deposited data

Results flagged for a closer look

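In 7 of 32 Hox genes 1 non-transgenic array stood apart from the other 3, with a gap beyond Dixon's 95% critical value. That is 21.9% of the Hox genes, near the 19.1% of all rows in which the same held. Chance flags about 1 in 20 groups of untied values. Non-transgenic replicate 4 was high for Hoxb8 (6.07 against 5.44 to 5.48) and Hoxa11 (5.78 against 5.73), and low for Hoxb4 (7.37 against 7.46) and Hoxb7 (6.92 against 7.02 to 7.04). Non-transgenic replicate 1 was high for Hoxc9 (6.86 against 6.58 to 6.62) and Hoxa7 (6.91 against 6.86), and non-transgenic replicate 2 was low for Hoxd13 (5.38 against 5.66 to 5.69). In Hoxa7, Hoxa11 and Hoxb4 the other 3 arrays held identical values, so any deviation stands apart.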

How the results depend on the processing

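Under all 17 alternatives limma called 0 Hox genes at an adjusted p of 0.05. The 10 Hox genes named for their p kept their direction in every alternative that held them. They had been picked for their p on these same arrays, so the kept direction is no separate support. Among the bright genes, Hoxb4 turned to 0.082 with array weights and 0.12 without P467L replicate 3. Hoxd10 turned to 0.103 with the replicate number as a block or without non-transgenic replicate 4 and to 0.050 without P467L replicate 2. Hoxa5 turned to 0.0125 without P467L replicate 1 and 0.0025 without P467L replicate 3. Apart from arrays left out, limma's listing of Hoxc6 at an unadjusted p of 0.05 ended after a further quantile normalization (0.0744), with tied rows left out (0.0587), with array weights (0.0702) and with the replicate block (0.158, difference -0.19). Lower Hox genes listed then numbered 0 under the quantile normalization and 0 without tied rows. With the replicate block 1 other than Hoxc6 was listed, and with array weights Hoxa4 was (limma, unadjusted p = 0.0438). With array weights 5 Hox genes were listed as higher, beside 12.1% of all rows in either direction. In that fit P467L replicate 1 weighed 3.54, and P467L replicates 2 and 3 weighed 0.46 and 0.33. The block changed no adjusted call. The deviations of same-numbered arrays correlated at 0.116, -0.205 and -0.090. So few correlations cannot decide whether the numbers pair the mice. The further quantile normalization left 1 Hox gene without overlap, against 4.09% of all rows. The median of cluster D was 0.0925 with the lowest 50% of rows left out, which holds fewer genes, and that of cluster B was 0.051 with array weights. The cause was not tested.

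With 1 array left out, Hox genes at an unadjusted p of 0.05 numbered 0 to 2 higher and 0 to 1 lower, beside 2.62% to 5.27% of all rows in either direction. The 2 higher genes arose without P467L replicate 2, where that share was 5.27%. Those without overlap numbered 0 to 4, where fewer arrays overlap less: without P467L replicate 2 it was 10.4% of all rows. The median over 32 genes ran from -0.044 to 0.049, for paralogues 1 to 4 from -0.0525 to 0.0475, for 5 to 8 from -0.0575 to -0.0013 and for 9 to 13 from -0.050 to 0.100. It ran from -0.0375 to 0.105 in cluster A, from -0.035 to 0.048 in B, from -0.092 to 0.0038 in C and from -0.069 to 0.0525 in D. Hox rows above the reference numbered 12 to 14, and 18 at the lower references, where 50.8% and 49.8% of all rows lay above. Single differences ran from -0.1525 to 0.0125 for Hoxa5, from -0.2125 to 0.12 for Hoxb4 and from -0.12 to 0.103 for Hoxd10.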
